A study of Homo sapiens with 12 samples.

Results

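Sphingosine-1-phosphate (S1P) is a lipid messenger that cells make from sphingosine, export and sense through surface receptors. The 10 genes described here cover that circuit: the exporter *SPNS2*, the receptor genes *S1PR1*, *S1PR2*, *S1PR3* and *S1PR5*, the kinases *SPHK1* and *SPHK2* that make S1P, the lyase *SGPL1* that cleaves it, and the phosphatases *SGPP1* and *PLPP3* that remove its phosphate. They were taken by symbol from the 43236 gene symbols of the count data, and 9 of the 10 passed the filter on low counts. The members were selected on their measured log2 differences between NXP800 and DMSO at 6 h and 24 h, so what NXP800 did to them is given as a description with standard errors and without p-values. The count of members past a threshold supports nothing by itself for the same reason.

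RNA sequencing was performed on MNNG/HOS cells (HOS-MNNG in the labels), a human osteosarcoma line derived from HOS by chemical transformation. Cells received DMSO, the solvent control, or 300 nM NXP800, an orally available small molecule, for 6 h or 24 h. The dose is the one named in the methods and not in the labels. Each of the 4 conditions has 3 replicates, 12 libraries in all, from polyA RNA of a single cell line. The labels do not say whether replicates came from separate cultures, so the spread between them may be partly technical. Counts on genes lay between 30810614 and 31394097 per library at 6 h and between 30947195 and 31947656 at 24 h. Reads on no annotated gene made up 6.66 to 8.14% at 6 h and 2.73 to 3.67% at 24 h, so the libraries of the 2 times differ in this respect and time cannot be told apart from library set.

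S1P acts inside out. Sphingosine, released from ceramide, is phosphorylated in the cytosol, and the product either leaves the cell through transporters such as *SPNS2* or is broken down. Outside, S1P binds G protein-coupled receptors that differ in the G proteins they use: *S1PR1* signals mainly through Gi, whereas *S1PR2* and *S1PR3* also use Gq and G12/13 and act on the cytoskeleton. Phosphatases return S1P to sphingosine, and the lyase is the only exit from the sphingolipid pathway, yielding a fatty aldehyde and phosphoethanolamine. The circuit is best known for guiding lymphocytes and keeping vessels tight, and S1P also acts on bone cells.

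CPM stands for a gene's counts over its TMM-scaled library total, and levels of different genes are set side by side only per kb of exon length. The labelled cell type was compared with osteoblast markers: *COL1A1* (143 to 566 CPM), *RUNX2* (20.7 to 42.5 CPM) and *SPP1* were present, while *SP7*, *ALPL*, *COL1A2*, *IBSP* and *BGLAP* stayed at or below 0.378 CPM in every library. The 6 endothelial markers summed to 0.495 to 2.08 CPM, and the blood markers *PTPRC*, *CD3E* and *HBB* to near 0 with at most 5 counts for any of them. Of the other marker lists, *CD68* lay between 60.9 and 154 CPM, and the epithelial markers were split, with *KRT8* at 492 to 895 CPM, *KRT18* at 580.2 to 920 CPM and *EPCAM* at 5.59 to 10.2 CPM, but *CDH1* and *KRT5* at or below 0.0673 CPM. In a bulk library, fewer cells with a transcript and less transcript per cell cannot be told apart.

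Before the values, the sequences upstream of 5 members are shown, because these genes were at opposite ends of the response or, for *S1PR2*, carried a motif. Each is the 250 bases before the gene's RefSeq start on GRCh38.p14, 5′ to 3′ on the gene's strand, and capitals mark a motif match. *S1PR5* is the receptor gene with the lowest level under NXP800 relative to DMSO at 6 h (chr19:10517966-10518215, minus strand), and *S1PR3* the other receptor gene called lower at both times (chr9:88990613-88990862, plus strand). *SPHK1* (chr17:76382954-76383203, plus strand) and *SGPL1* (chr10:70815698-70815947, plus strand) were higher at both times. *S1PR2* lies on the minus strand at chr19:10231332-10231581.
S1PR5: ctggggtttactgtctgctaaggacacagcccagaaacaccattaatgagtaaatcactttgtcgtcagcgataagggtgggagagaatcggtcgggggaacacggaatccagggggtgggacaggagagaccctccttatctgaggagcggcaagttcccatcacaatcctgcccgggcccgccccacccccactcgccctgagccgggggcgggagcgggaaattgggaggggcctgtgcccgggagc
S1PR3: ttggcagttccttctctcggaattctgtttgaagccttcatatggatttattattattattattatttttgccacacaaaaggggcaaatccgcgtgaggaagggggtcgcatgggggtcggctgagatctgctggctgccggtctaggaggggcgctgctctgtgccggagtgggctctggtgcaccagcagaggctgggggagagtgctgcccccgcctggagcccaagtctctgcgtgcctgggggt
SPHK1: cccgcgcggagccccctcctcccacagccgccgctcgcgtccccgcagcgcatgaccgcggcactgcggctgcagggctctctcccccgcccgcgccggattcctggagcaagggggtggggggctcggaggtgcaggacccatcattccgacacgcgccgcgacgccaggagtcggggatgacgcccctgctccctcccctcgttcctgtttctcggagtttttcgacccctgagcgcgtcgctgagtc
SGPL1: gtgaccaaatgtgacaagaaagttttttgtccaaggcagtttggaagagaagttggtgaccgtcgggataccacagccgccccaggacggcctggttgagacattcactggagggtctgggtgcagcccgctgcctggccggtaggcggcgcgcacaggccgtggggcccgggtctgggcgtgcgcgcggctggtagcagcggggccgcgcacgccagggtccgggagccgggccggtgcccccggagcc
S1PR2: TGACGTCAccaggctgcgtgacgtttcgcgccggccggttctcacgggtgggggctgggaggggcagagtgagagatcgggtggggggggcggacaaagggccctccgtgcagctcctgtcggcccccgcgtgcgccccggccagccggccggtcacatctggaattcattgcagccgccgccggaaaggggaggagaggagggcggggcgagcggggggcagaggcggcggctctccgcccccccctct
Motifs of 4 stress-responsive elements were searched on both strands from 250 bases before to 50 after the start: the C/EBP-ATF element core TGATGNAA (in 3.62% of 35116 promoters), the cAMP response element TGACGTCA (1.85%), the ER stress response element (0.0769%) and a heat shock element (0.490%). Of the 8 members with a promoter in the table (not *SPNS2* and *SGPP1*), the only match was the cAMP response element of *S1PR2*, at -250 to -243. The absence of a match says only that these letters are not in this window. The 300-base windows of *SPHK1* and *S1PR2* held 72.7% and 74.0% G and C, and that of *PLPP3* 49.0%, beside a median of 58.7% over all promoters. *SPHK1* had 38 CpG in its window and *S1PR5* had 14, against a median of 14.

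The exporter showed the largest difference among the members at 24 h. *SPNS2* carries S1P across the plasma membrane and lies at chr17:4498881-4539035 (GRCh38.p14). In DMSO at 6 h its levels were 0.570, 1.17 and 0.577 CPM, and in NXP800 3.72, 7.10 and 3.65 CPM. At 24 h DMSO gave 0.803, 0.504 and 0.927 CPM and NXP800 14.8, 18.3 and 23.9 CPM. All NXP800 libraries lay above all DMSO libraries, and the 24 h NXP800 libraries above those at 6 h. The log2 difference between NXP800 and DMSO was 2.64 ± 0.33 (SE) at 6 h, a 6.24-fold difference, and 4.67 ± 0.31 at 24 h, 25.4-fold. Of 15979 tested genes, 81 had a larger rise at 6 h and 16 at 24 h. The DMSO libraries held only 15 to 37 counts of *SPNS2* each, so the fold rests on a low denominator, while its NXP800 libraries held 119 to 750. Among tested genes with known exon length, 11.0% had a lower level per kb than *SPNS2* in DMSO at 6 h and 31.2% in NXP800. At 24 h the shares were 11.7% and 56.5%, so *SPNS2* passed from near the bottom of the detected transcripts to the middle.

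**Figure D1:**
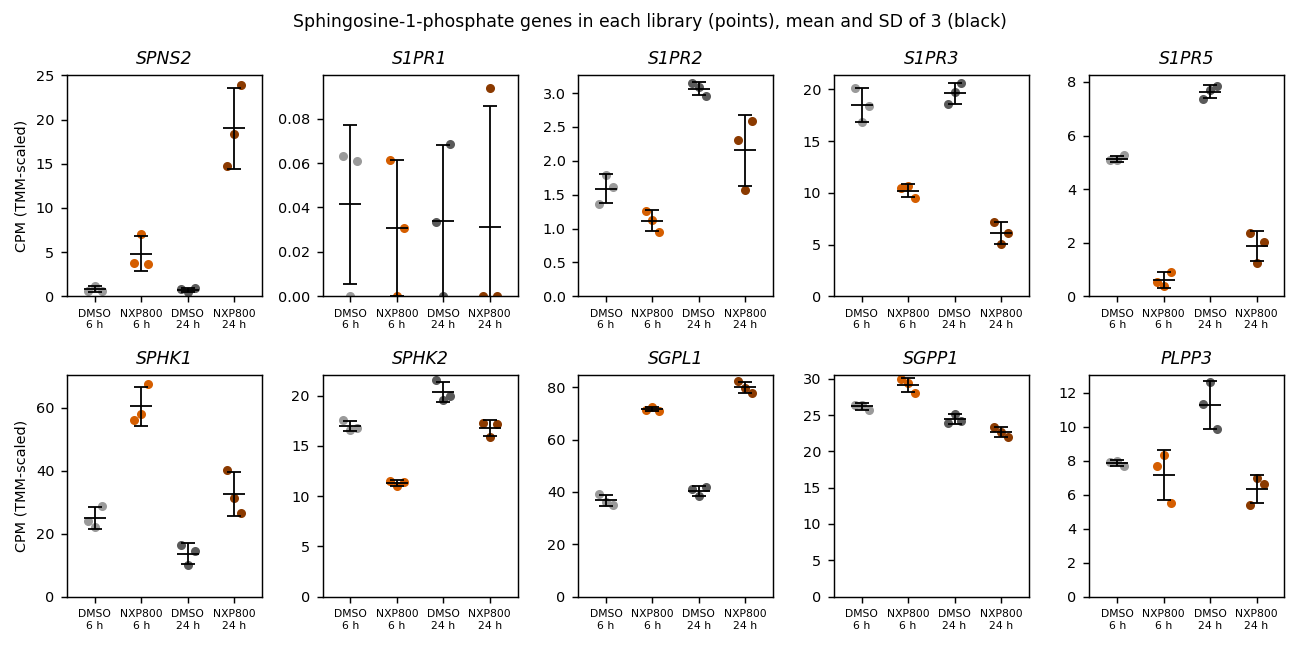
Each panel plots 1 gene in CPM on its own axis from 0, with points for the 3 libraries of a condition and black bars for the mean and SD. *SPNS2*, *SPHK1* and *SGPL1* sit higher in NXP800 at both times, *S1PR2*, *S1PR3*, *S1PR5* and *SPHK2* lower, *SGPP1* moves little, and *S1PR1* stays below 0.1 CPM.

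Receptor transcripts were lower. *S1PR5*, which couples to Gi and is known from natural killer cells and oligodendrocytes, lies at chr19:10512742-10517965 and measured 5.07, 5.08 and 5.26 CPM in DMSO at 6 h. NXP800 libraries gave 0.522, 0.367 and 0.921 CPM. At 24 h the values were 7.36, 7.70 and 7.86 CPM in DMSO and 2.34, 1.25 and 2.04 CPM in NXP800. No NXP800 library reached a DMSO library at either time, and the 24 h NXP800 libraries all lay above the 6 h ones. The log2 difference was -3.08 ± 0.25 at 6 h and -2.02 ± 0.21 at 24 h, and 12 and 294 tested genes had a lower one.

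*S1PR3*, a receptor of contractile and mesenchymal cells that couples to Gi, Gq and G12/13, lies at chr9:88990863-89005155. It measured 20.1, 16.8 and 18.4 CPM in DMSO at 6 h against 10.4, 10.7 and 9.52 CPM in NXP800. At 24 h it measured 18.5, 19.7 and 20.6 CPM in DMSO against 7.17, 5.08 and 6.09 CPM. All NXP800 libraries were below all DMSO libraries, and lower at 24 h than at 6 h. The log2 difference was -0.85 ± 0.11 at 6 h and -1.68 ± 0.12 at 24 h.

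*S1PR2*, known for restraining cell migration, lies at chr19:10221433-10231331. It had 1.36, 1.80 and 1.61 CPM in DMSO and 1.26, 1.13 and 0.952 CPM in NXP800 at 6 h. At 24 h the values were 3.14, 3.09 and 2.95 CPM against 2.31, 1.57 and 2.58 CPM. The groups did not overlap, but the log2 differences of -0.51 ± 0.22 at 6 h and -0.51 ± 0.19 at 24 h lie close to the call threshold. With the replicate number as a block the 6 h value of -0.51 was also past the threshold. Without DMSO 24 h replicate 1, 2 or 3 or NXP800 24 h replicate 2 the 24 h value was -0.49, -0.50, -0.54 and -0.30 and no longer past it, and without DMSO 6 h replicate 1 or NXP800 24 h replicate 2 or 3 the 6 h value was -0.61, -0.48 and -0.51 and past it.

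*S1PR1*, the receptor of endothelial cells and lymphocytes, had 0 to 3 counts per library and 13 in all, with 5 of 12 libraries at 0. It was not tested. *S1PR4*, the remaining receptor gene and not a member, had 0 or 1 count per library. A floor of 3 counts corresponds to 0.0911 to 0.103 CPM, so neither transcript was measurable above it, and floors cover counting error only.

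Summed over the 4 member receptor genes, the level was 3.62 ± 0.078 CPM per kb (SD, n = 3) in DMSO and 1.27 ± 0.045 in NXP800 at 6 h. At 24 h it was 5.00 ± 0.14 and 1.71 ± 0.39. The mix differed too. *S1PR5* made up 50.6% ± 1.04 of the sum in DMSO and 16.8% ± 7.69 in NXP800 at 6 h, and 54.5% ± 0.264 and 38.7% ± 3.31 at 24 h. *S1PR3* made up 37.2% ± 2.7 and 58.7% ± 5.00 at 6 h, and 28.6% ± 0.697 and 26.4% ± 2.83 at 24 h, where the groups overlap. *S1PR2*, the smallest of the 3 in DMSO, took 12.1% ± 1.88 and 24.1% ± 3.34 at 6 h and 16.8% ± 1.01 and 34.5% ± 2.96 at 24 h. These shares depend on the exon length used: with the longest transcript of each gene, *S1PR5* and *S1PR3* stood at 45.6% and 45.0% in DMSO at 6 h and at 14.5% and 67.7% in NXP800, and at 24 h *S1PR5*, *S1PR3* and *S1PR2* stood at 37.3%, 34.2% and 27.8% in NXP800.

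**Figure D2:**
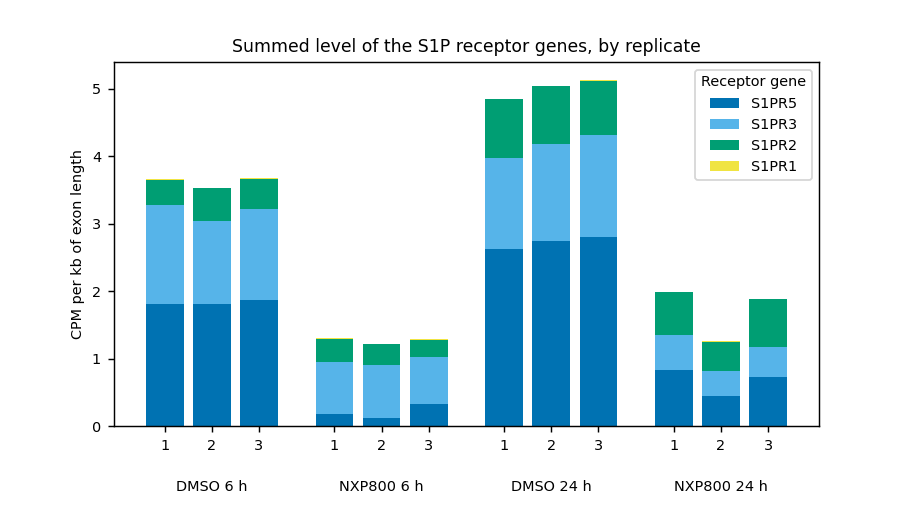
Stacked bars give the summed level of the S1P receptor genes per library in CPM per kb of exon length, by receptor, in the 3 replicates of each condition. Bars in NXP800 (1.22 to 1.99) are shorter than those in DMSO (3.53 to 5.13), and the *S1PR5* segment is thinner in NXP800 at 6 h than in the other conditions.

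The kinases moved apart. *SPHK1*, the inducible cytosolic kinase, lies at chr17:76383204-76387855 and measured 24.2, 22.0 and 28.8 CPM in DMSO and 56.1, 57.9 and 67.6 CPM in NXP800 at 6 h. At 24 h it measured 16.5, 10.1 and 14.5 CPM against 40.3, 31.3 and 26.5 CPM. NXP800 libraries lay above DMSO libraries of their own time throughout. The log2 difference was 1.28 ± 0.16 at 6 h and 1.26 ± 0.17 at 24 h, 2.42-fold and 2.39-fold.

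*SPHK2*, the kinase found in the nucleus and other organelles, lies at chr19:48619506-48630405. It measured 17.6, 16.6 and 16.7 CPM in DMSO and 11.5, 11.0 and 11.4 CPM in NXP800 at 6 h, and 21.5, 19.6 and 19.9 CPM against 17.3, 15.9 and 17.1 CPM at 24 h. The groups did not overlap at either time. The log2 difference was -0.58 ± 0.080 at 6 h and -0.28 ± 0.078 at 24 h. In its annotated exons 22.3% of the length is shared with other genes, *DBP* among them, and the strand setting of the counting is not given in the sources used here, so its counts may hold reads of those genes. No other member shares as large a part of its exons. Per kb, *SPHK1* made up 66.5% ± 3.09 of both kinases in DMSO and 87.9% ± 1.04 in NXP800 at 6 h, and 47.3% ± 5.33 and 72.2% ± 4.18 at 24 h.

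On the removal side, the lyase and the phosphatases differed. *SGPL1*, which cleaves S1P irreversibly in the endoplasmic reticulum, lies at chr10:70815948-70881184. It measured 39.2, 36.1 and 34.9 CPM in DMSO and 71.4, 72.5 and 71.0 CPM in NXP800 at 6 h, and 40.9, 38.3 and 42.0 CPM against 82.3, 79.5 and 78.0 CPM at 24 h. NXP800 libraries lay within 2 narrow bands far above DMSO. The log2 difference was 0.96 ± 0.063 at 6 h and 0.98 ± 0.063 at 24 h, 1.95-fold and 1.98-fold, the smallest standard errors among the members.

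*SGPP1*, the S1P phosphatase of the endoplasmic reticulum at chr14:63684216-63728065, measured 26.5, 26.5 and 25.7 CPM in DMSO and 29.9, 29.5 and 28.0 CPM in NXP800 at 6 h. At 24 h it measured 23.9, 25.2 and 24.2 CPM against 23.4, 22.6 and 22.0 CPM. The groups were apart both times but on opposite sides, and by little: the log2 difference was 0.15 ± 0.066 at 6 h and -0.11 ± 0.067 at 24 h. Neither passed the threshold, although the 6 h value did with the replicate block (0.15), with DESeq2's size factors or library size only (0.17 each), with only the 6 libraries of the comparison (0.19) and without NXP800 24 h replicate 2 (0.18).

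*PLPP3*, a phosphatase of the cell surface that acts on S1P and lysophosphatidic acid, lies at chr1:56494761-56579563. It measured 7.92, 7.98 and 7.66 CPM in DMSO and 7.68, 8.32 and 5.50 CPM in NXP800 at 6 h, with overlapping groups. At 24 h it measured 11.3, 12.6 and 9.85 CPM against 5.38, 6.99 and 6.60 CPM, with none overlapping. The log2 difference was -0.13 ± 0.15 at 6 h, or 0.028 without NXP800 6 h replicate 3, and -0.83 ± 0.15 at 24 h.

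**Figure D3:**
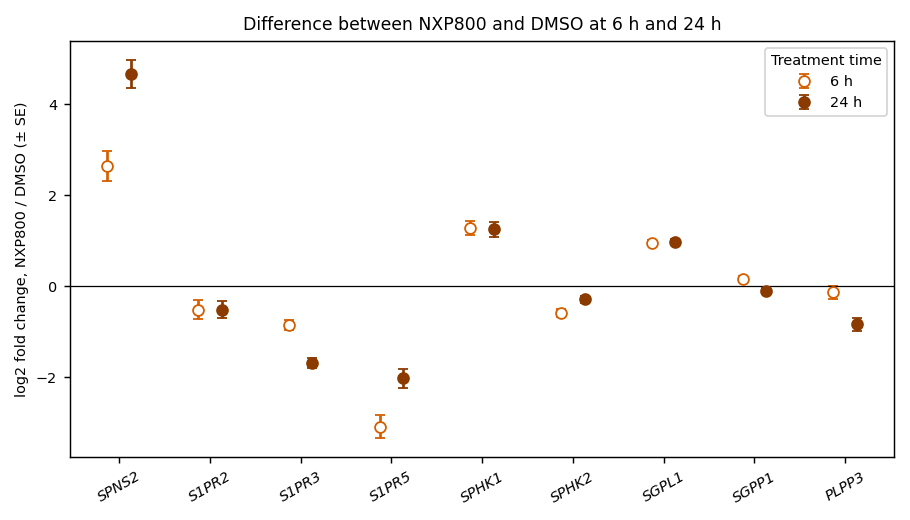
The log2 difference between NXP800 and DMSO is plotted for the 9 tested members at 6 h (open) and 24 h (filled), with bars of 1 SE from the edgeR fit. *SPNS2* reaches 4.67 at 24 h, *S1PR5* lies at -3.08 at 6 h, and *SPHK1* and *SGPL1* hardly differ between the times.

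Counted over the members, 3 of 9 tested were called higher at 6 h (*SPNS2*, *SPHK1* and *SGPL1*; 25.0% of all tested genes were) and 3 lower (*S1PR3*, *S1PR5* and *SPHK2*; 27.8%), by edgeR at an adjusted p below 0.05. At 24 h the same 3 were called higher (27.5% of all tested genes) and 5 lower (28.6%), *S1PR2* and *PLPP3* being the additions. The libraries of NXP800 and DMSO did not overlap for 8 of 9 at 6 h, where this holds for 62.0% of all tested genes, and for 9 of 9 at 24 h (59.1%). Because the members were listed with these responses known, nothing is read from these counts.

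The 24 h response less the 6 h response was 2.03 ± 0.50 (log2, SE) for *SPNS2* and 1.06 ± 0.34 for *S1PR5*, whose difference from DMSO was thus smaller at 24 h. It was -0.83 ± 0.16 for *S1PR3* and -0.70 ± 0.21 for *PLPP3*. These 4 of 9 passed the threshold, against 25.8% of all tested genes in either direction. The differences are made of the 2 contrasts that the listing used, so nothing is read from these calls or from their changes below. *SPHK1* (-0.022 ± 0.23), *SGPL1* (0.020 ± 0.088) and *S1PR2* (0.0028 ± 0.23) lay near 0. *SPHK2* (0.30 ± 0.11) and *SGPP1* (-0.26 ± 0.094) did not pass, but did with the replicate block (0.30 and -0.26), and with at least 10 counts in all libraries (0.31 and -0.26), *SPHK2* also with library size only (0.37) and without NXP800 24 h replicate 2 (0.34). The *SPNS2* value was 1.60 and not past the threshold without DMSO 6 h replicate 2. That of *S1PR5* was not past it without NXP800 6 h replicate 1 or 2 (0.96 and 0.80) or NXP800 24 h replicate 1 or 3 (0.87 and 0.99), and that of *PLPP3* without NXP800 6 h replicate 1 or 2 (-0.65 and -0.58), DMSO 24 h replicate 2 (-0.61) or NXP800 24 h replicate 1 (-0.60).

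A comparison that the listing did not use is DMSO at 24 h against DMSO at 6 h, although it shares the DMSO libraries with the values above. By edgeR's quasi-likelihood F test, adjusted over all tested genes, 5 of 9 members differed. *S1PR2* rose by 0.94 ± 0.20 on the log2 scale (1.92-fold, adjusted p = 0.00114), *S1PR5* by 0.57 ± 0.19 (adjusted p = 0.0218), *PLPP3* by 0.52 ± 0.14 (adjusted p = 0.00844) and *SPHK2* by 0.26 ± 0.078 (adjusted p = 0.0127). *SPHK1* fell by 0.87 on the log2 scale (SE 0.17, 1.83-fold, adjusted p = 0.00065). In each of these 5 the DMSO groups of the 2 times did not overlap. *SGPL1* (0.14 ± 0.064, adjusted p = 0.0934), *SGPP1* (-0.10 ± 0.067, adjusted p = 0.243), *S1PR3* (0.088 ± 0.11, adjusted p = 0.544) and *SPNS2* (-0.049 ± 0.44, adjusted p = 0.941) did not pass, and at 15 to 37 counts of *SPNS2* a change within its wide error was not detectable. Among all tested genes 21.0% were called higher and 20.6% lower.

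That comparison depends on scaling more than the others. With library size only, the median log2 difference of all genes was -0.15, against -0.0035 with TMM, and 1891 genes were called higher and 5241 lower in place of 3358 and 3291. Relative to DMSO at 6 h, *S1PR2* and *SPHK1* kept their calls, *S1PR5* (0.43), *PLPP3* (0.38) and *SPHK2* (0.12) lost theirs, and *SGPP1* (-0.25) was called lower. *S1PR5* was also below the threshold without DMSO 6 h replicate 1 or 2 (0.56 and 0.57) or DMSO 24 h replicate 2 or 3 (0.57 and 0.55), and *SPHK2* without DMSO 24 h replicate 1 (0.22).

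Ordered by level per kb, *SGPP1* (7.85 ± 0.13 CPM per kb) and *SPHK1* (5.66 ± 0.79) led in DMSO at 6 h, followed by *SGPL1* (3.18 ± 0.19), *SPHK2* (2.82 ± 0.090), *S1PR5* (1.83 ± 0.038), *PLPP3* (1.49 ± 0.033), *S1PR3* (1.35 ± 0.12), *S1PR2* (0.436 ± 0.060) and *SPNS2* (0.190 ± 0.084). Only *PLPP3* and *S1PR3* overlapped among these neighbours. In NXP800 at 24 h *SPHK1* (7.40 ± 1.59), *SGPL1* (6.92 ± 0.19) and *SGPP1* (6.79 ± 0.21) overlapped at the top, *SPNS2* came next (4.67 ± 1.14), ahead of *SPHK2* (2.79 ± 0.13) and *PLPP3* (1.20 ± 0.16), and *S1PR5*, *S1PR2* and *S1PR3* each overlapped the next at the bottom (0.671, 0.591 and 0.446). In NXP800 at 6 h *SPHK1* (13.7 ± 1.41) stood apart above *SGPP1* (8.73 ± 0.30) and *SGPL1* (6.20 ± 0.064), *SPHK2* followed (1.88 ± 0.044), *PLPP3* (1.36 ± 0.28) overlapped *SPNS2* (1.19 ± 0.48), and *S1PR3* (0.745 ± 0.045) lay above *S1PR2* (0.306 ± 0.042) and *S1PR5* (0.215 ± 0.10), which overlapped. In DMSO at 24 h *SGPP1* (7.32 ± 0.21) led, *SGPL1* (3.50 ± 0.16), *SPHK2* (3.39 ± 0.17), *SPHK1* (3.10 ± 0.74) and *S1PR5* (2.73 ± 0.091) each overlapped the next, and *PLPP3* (2.14 ± 0.26), *S1PR3* (1.43 ± 0.076), *S1PR2* (0.841 ± 0.027) and *SPNS2* (0.183 ± 0.053) stood apart from one another. With the longest transcript in place of all exons *SPHK1* (9.98) stood above *SGPP1* (7.85) in DMSO at 6 h, and *SPNS2* (5.58) overlapped *SGPP1* and *SPHK2* in NXP800 at 24 h.

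The wider pathway was read from 5 lists with 81 genes, 74 of which were tested. In these genes the NXP800 responses were tested with edgeR's quasi-likelihood test and adjustment over all tested genes. These lists, like the members, were drawn up with earlier results of these data known. Their counts and adjusted p-values therefore describe the listed genes and are not independent support. At 6 h 14 were called higher and 28 lower, where 25.0% and 27.8% of all tested genes were, and at 24 h 17 and 35, where 27.5% and 28.6% were. The median log2 difference was -0.15 at 6 h and -0.23 at 24 h, beside -0.046 and -0.0033 over all tested genes.

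Each of the 8 tested genes in the list of aldehyde and ethanolamine enzymes fell at 24 h, beside 28.6% of all tested genes. The list holds *ALDH3A2*, which acts on the fatty aldehyde released by the lyase, *TECR*, which acts later on that route, and *PCYT2*. It also holds *HACD1*, *HACD2* and *HACD3*, dehydratases of fatty acid elongation that do not act on this aldehyde. The ethanolamine kinases in it make phosphoethanolamine independently of the lyase. At 6 h 6 fell, beside 27.8% of all tested genes, and none rose, with a median of -0.45 at both times. *ALDH3A2*, the fatty aldehyde dehydrogenase, fell from 114 ± 4.47 to 64.9 ± 5.31 CPM (SD, n = 3) at 6 h and from 92.8 ± 1.37 to 53.7 ± 8.13 CPM at 24 h. Its log2 difference was -0.81 (adjusted p = 1.53e-06) and -0.79 (adjusted p = 1.65e-06). *PCYT2*, which activates phosphoethanolamine, gave -0.67 and -0.76 (adjusted p = 4.68e-05 and 1e-05), and *TECR*, an enoyl-CoA reductase, -0.35 and -0.83 (adjusted p = 0.000738 and 9.79e-08). *SGPL1* itself had the opposite sign.

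Of 18 tested G proteins and effectors of the receptors, 2 rose and 11 fell at 6 h, beside 25.0% and 27.8% of all tested genes. At 24 h 3 rose and 12 fell, beside 27.5% and 28.6%, and the medians were -0.22 and -0.28. *ARRB1*, the arrestin that ends receptor signalling, fell from 45.2 ± 3.44 to 15.8 ± 0.933 CPM at 6 h and from 39.3 ± 1.70 to 8.04 ± 2.26 CPM at 24 h, a log2 difference of -1.51 (adjusted p = 1.24e-07) and -2.29 (adjusted p = 1.75e-09). *GNAI2*, a Gi alpha subunit, gave -0.77 and -0.74 (adjusted p = 3.17e-07 and 3.23e-07). On the other side, *GNA13*, the G13 alpha subunit, rose from 107 ± 3.27 to 197 ± 12.6 CPM at 6 h (log2 0.89, adjusted p = 2.97e-08) and from 100.4 ± 7.56 to 141 ± 6.19 CPM at 24 h (0.49, adjusted p = 1.51e-05). *ROCK1*, a kinase that acts on the cytoskeleton, rose by 0.30 (adjusted p = 0.00164) and 0.23 (adjusted p = 0.0108), the latter lost without DMSO 24 h replicate 2 (0.17). *ARHGEF11*, a guanine nucleotide exchange factor, gave -0.088 at 6 h, which did not pass, and rose by 0.28 at 24 h (adjusted p = 0.0126), a call lost without DMSO 24 h replicate 3 (0.22).

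Among the remaining transporters, phosphatases and carriers, 3 of 11 tested rose and 1 fell at 6 h, and 6 rose and 3 fell at 24 h, with medians of 0.15 and 0.34. The shares over all tested genes were 25.0% and 27.8% at 6 h and 27.5% and 28.6% at 24 h, so the rises at 6 h and the falls at 24 h were near the background. *ABCA1*, a lipid exporter, rose from 6.86 ± 0.551 to 20.5 ± 5.11 CPM at 6 h (log2 1.58, adjusted p = 8.35e-05) and from 8.14 ± 2.53 to 15.8 ± 6.36 CPM at 24 h (0.96, adjusted p = 0.00462), where the groups overlapped. *MFSD2A*, a lysophospholipid carrier, rose by 0.59 (adjusted p = 0.000297) and 0.48 (adjusted p = 0.00147). *PLPP2*, a lipid phosphate phosphatase like *PLPP3*, fell at both times (-0.82 and -0.58, adjusted p = 5.56e-06 and 0.000107). *ABCG2*, a multidrug exporter, fell at 24 h (-0.57, adjusted p = 0.00467), with 0.18 at 6 h.

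In the metabolism of ceramide and sphingosine, 9 genes rose and 9 fell of 32 tested at 6 h, and 8 and 9 at 24 h, with medians of -0.090 and -0.065. These counts are close to the shares over all tested genes, 25.0% and 27.8% at 6 h and 27.5% and 28.6% at 24 h. *CERK*, the ceramide kinase, fell at 6 h from 66.1 ± 1.15 to 33.2 ± 3.63 CPM (log2 -0.99, adjusted p = 5.05e-07) and stood at 69.3 ± 9.44 and 67.0 ± 6.12 CPM at 24 h. *SGMS2*, a sphingomyelin synthase, rose by 1.23 at 6 h (adjusted p = 4.7e-07) and by 0.33 at 24 h (adjusted p = 0.0416). Its 24 h call, with overlapping groups, was lost when any of 7 single libraries was left out (0.23 to 0.37). *ASAH2*, a neutral ceramidase that yields sphingosine, rose by 0.74 and 0.75 (adjusted p = 0.00153 and 0.00312), at 1.39 to 3.99 CPM on group average. The other ceramidases did not rise. *ASAH1*, the acid ceramidase, was called lower at both times by edgeR (-0.48 and -0.36, adjusted p = 0.00149 and 0.0115), at 28.1 to 43.4 CPM on group average. *ACER2* was called lower at 6 h only (-0.92, adjusted p = 0.0342), at 0.327 to 0.621 CPM, and *ACER3* at neither time. *DEGS1*, the desaturase that completes ceramide, fell by 0.50 and 0.51 on the log2 scale (adjusted p = 1.73e-05 and 1.34e-05). *PSAP*, precursor of the saposins, rose at 24 h from 757 ± 48.4 to 1155 ± 127 CPM (log2 0.61, adjusted p = 8.27e-06). The sphingomyelinase genes *SMPD4* and *SMPD1* fell at 24 h by 0.67 and 0.60 on the log2 scale (adjusted p = 2.65e-07 and 6.12e-05).

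The receptors of lysophosphatidic acid and its producing enzyme autotaxin held 5 tested genes of 7. Only *LPAR1*, *LPAR2* and *LPAR3* are close relatives of the S1P receptors. Of the tested genes none rose, 1 fell at 6 h and 3 at 24 h (*LPAR1*, *LPAR6* and autotaxin), where 27.8% and 28.6% of all tested genes fell. *LPAR1* fell at 24 h from 10.5 ± 1.96 to 4.32 ± 0.660 CPM (log2 -1.28, adjusted p = 2.05e-06) with 0.028 at 6 h. *LPAR3* fell at 6 h from 55.9 ± 3.51 to 42.8 ± 2.16 CPM (-0.38, adjusted p = 0.0112), a call lost without DMSO 6 h replicate 2 (-0.33).

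**Figure D4:**
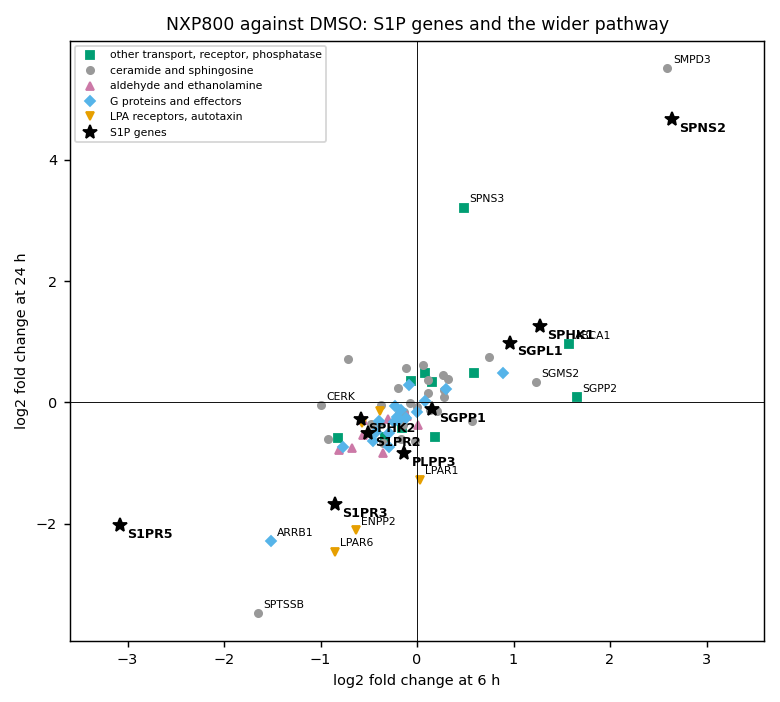
Each symbol is 1 tested gene, with the log2 difference between NXP800 and DMSO at 6 h on the horizontal axis and at 24 h on the vertical axis, stars for the 9 tested members and other symbols for the 5 lists. *SPNS2* stands at 2.64 and 4.67 and *S1PR5* at -3.08 and -2.02, while *ARRB1* lies at -1.51 and -2.29 and most genes of the lists lie within 1 of 0 on both axes.

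By Pearson's r over log2 CPM of the 12 libraries, the genes most like *SPNS2* among 12039 compared were *PLIN2* (r = 0.991), *TRIM25* (0.987), *CCDC113* (0.987), *TACC2* (0.984) and *THSD4* (0.984), and 86 genes had an r above 0.95. The 12 libraries fall into 4 conditions that the points share, so these values describe the pattern over conditions. *PLIN2*, a lipid droplet coat protein, measured 136 and 194 CPM on average in DMSO and NXP800 at 6 h, and 132 and 245 CPM at 24 h. *TRIM25*, a ubiquitin ligase, measured 112 and 274 CPM, and 126 and 510.1 CPM. Like *SPNS2*, both had similar DMSO levels at the 2 times and a higher level under NXP800 at 24 h than at 6 h.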

How the data were processed

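Gene expression was measured by RNA-seq in MNNG/HOS cells under DMSO or NXP800 at 6 h and 24 h (n = 3). Raw counts per gene symbol were deposited, without normalization, which the authors made from strand-specific paired-end libraries with fastp 0.20.1, STAR 2.7.5a and HTSeq 0.12.4 on hg38 with RefSeq genes (tools per the submitters' processing notes). The strand setting and the rule for overlapping genes are not given in the sources used here. Replicates of a group differed beyond sampling noise (chi-square per degree of freedom 7.36 to 26.3), so none was counted as a duplicate.

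Entries of the counter without a gene were set aside. Of 43236 symbols, filterByExpr kept 15979. Counts were scaled by TMM and tested with edgeR 4.0.16 (quasi-likelihood, R 4.3.3, limma 3.58.1) in 1 model of the 4 conditions, with Benjamini-Hochberg adjustment over all tested genes and calls at an adjusted p below 0.05. The procedure was tested on simulated data. The SE of a log2 difference is its size divided by the root of the F statistic. CPM use TMM-scaled totals. Per-kb levels use the union of GENCODE v44 exons, known for 14631 of the tested genes, whose models can differ from those counted. Depth leaves the spread between replicates, not counting error, as the limit for all but low genes such as *SPNS2* in DMSO. Alternatives changed the scaling (size factors of DESeq2, or none beyond library size), the filter (none, or a minimum of 10 counts in all libraries), the libraries (the 6 of a comparison, or all but 1), the model (a replicate block, or the Wald test of DESeq2 1.42.0), the threshold (0.01) and the exon length (longest transcript).

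Libraries of 1 time with equal replicate numbers in the labels deviated alike. Across genes, the deviations from the group means of DMSO and NXP800 libraries of 1 time had r = 0.159 to 0.329 for equal numbers and -0.268 to 0.0580 for unequal ones. Genes are not independent replicates. Except where the replicate block is named, the standard errors and calls come from the model without it. With the block the standard errors of the tested members at 6 h and 24 h were smaller. For *SPNS2* they were 0.16 in place of 0.33 at 6 h and 0.14 in place of 0.31 at 24 h.

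The members and all lists were chosen with earlier results of these data known. Genes named with values from the lists are, per list and time, the 2 largest rises and 2 largest falls that were called. Their mean log2 CPM was 1 or more. The ceramidases beside *ASAH2* and the genes under other observations are exceptions and are not counted as named genes. The 5 genes most like *SPNS2* were taken by Pearson's r at a prior count of 2. Promoter sequences are RefSeq's, on GRCh38.p14.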

Additional observations from a re-analysis of the deposited data

Results flagged for a closer look

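For *SGPP1* the 3 NXP800 libraries lay above the 3 DMSO libraries at 6 h and below them at 24 h, and the 24 h response less the 6 h response was -0.26 on the log2 scale. That difference did not pass the threshold in the edgeR fit, did with the replicate block and with at least 10 counts in all libraries, and is a description only, since the member list was drawn up with both responses known.

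Over the 5 lists 21 of 74 tested genes had responses that differed between the times, beside 25.8% of all tested genes. For 11 of the 21 named genes, picked as the largest called responses of each list above a minimum level, the responses at the 2 times differed by edgeR's quasi-likelihood test of the difference itself, adjusted over all tested genes. Genes picked as extreme at 1 time are favoured to differ from the other time. The count of 11 is therefore not comparable with the shares above, and the adjusted p-values below are descriptive. The 24 h response less the 6 h response was negative for *LPAR1* (-1.30, adjusted p = 0.000251), *SGMS2* (-0.91, adjusted p = 0.00156), *ARRB1* (-0.78, adjusted p = 0.00713), *ABCG2* (-0.75, adjusted p = 0.0126), *TECR* (-0.48, adjusted p = 0.00306), *SMPD1* (-0.43, adjusted p = 0.0264), *GNA13* (-0.40, adjusted p = 0.00621) and *SMPD4* (-0.31, adjusted p = 0.0185). It was positive for *CERK* (0.95, adjusted p = 0.000129), *PSAP* (0.54, adjusted p = 0.00238) and *ARHGEF11* (0.37, adjusted p = 0.0403). The *ARHGEF11* value was not past the threshold when any of 8 single libraries was left out (0.28 to 0.40), that of *SMPD1* for 3 libraries (-0.41 to -0.38), and that of *SMPD4* without NXP800 6 h replicate 1 (-0.27). The *SMPD4* call was also lost with library size only (-0.24), and that of *SMPD1* without a filter on low counts (-0.42). Depth was alike at both times, while reads on no gene made up 6.66 to 8.14% of the 6 h and 2.73 to 3.67% of the 24 h libraries, and their part in these differences was not tested.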

How the results depend on the processing

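The directions at 6 h and 24 h of *SPNS2*, *S1PR2*, *S1PR3*, *S1PR5*, *SPHK1*, *SPHK2*, *SGPL1* and *SGPP1* held under the alternatives run, and so did all their calls but those of *S1PR2* and *SGPP1*. The members were listed with these responses known, so calls that held or moved describe the processing and are no support. Members called numbered 6 to 8 at 6 h and 7 to 8 at 24 h with single libraries left out, 2 to 5 for the difference of the responses and 4 to 5 for DMSO 24 h against DMSO 6 h. The difference of the responses had 4 members called, 2 at an adjusted p below 0.01 and also without NXP800 6 h replicate 1 or 2 or NXP800 24 h replicate 1. DMSO 24 h against DMSO 6 h had 5, and 3 with library size only and at an adjusted p below 0.01. In the other lists the difference was called for 21 genes, for 10 at an adjusted p below 0.01 and for 15 to 20 with single libraries left out, where the counts at 6 h and 24 h were 36 to 42 and 45 to 52. With the replicate block 8 members were called at 6 h, 8 at 24 h, 6 in the difference and 5 in DMSO. It added *S1PR2* (-0.51) and *SGPP1* (0.15) at 6 h and *SPHK2* (0.30) and *SGPP1* (-0.26) in the difference, and changed no other call of a member or, where called, of a named gene. For DMSO 24 h against DMSO 6 h the block was the replicate number shared by both times, since pairs within a time cannot serve that contrast. Whether equal numbers at the 2 times belong together was not tested. Over all genes the difference had 4129 calls, 2945 higher and 3339 lower with the block, 946 and 1290 at an adjusted p below 0.01, and 2463 and 1670 with library size only in place of 1924 and 2205. *S1PR2* at 24 h was not called with library size only (-0.42), with 6 libraries (-0.49), by DESeq2's Wald test (-0.50) or at an adjusted p below 0.01.

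Signs turned only for log2 differences of at most 0.14 in size. In the difference of the responses *S1PR2* was -0.0027 with DESeq2's size factors, -0.0059 with the replicate block and -0.0032 by DESeq2's Wald test, and *SPHK1* was 0.050 with library size only. In DMSO 24 h against DMSO 6 h, *S1PR3* (-0.059) and *SGPL1* (-0.0087) turned with library size only, and *SPNS2* lay between -0.23 and 0.37 with single libraries left out, turning without DMSO 6 h replicate 2 (0.37) or DMSO 24 h replicate 2 (0.17). With single libraries left out, the difference lay between -0.15 and 0.18 for *S1PR2*, between -0.20 and 0.14 for *SPHK1* and between -0.029 and 0.054 for *SGPL1*, and *PLPP3* at 6 h lay between -0.25 and 0.028. The cause of these changes was not tested. Depth limits *SPNS2* in DMSO, *S1PR2* and *S1PR5* in NXP800, and leaves *S1PR1* untested. The longest transcript moved 23 of 40 levels per kb by more than the spread between replicates.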

Other observations

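Several genes of the wider pathway had large differences at levels too low for the naming rule, and were singled out after their values were seen. *SMPD3*, a neutral sphingomyelinase, averaged 0.0730 CPM with DMSO against 0.460 CPM with NXP800 at 6 h, and 0.0229 and 1.21 CPM at 24 h. *SPTSSB*, a small subunit of serine palmitoyltransferase, averaged 2.00 and 0.633 CPM at 6 h and 1.83 and 0.160 CPM at 24 h (log2 -1.65 and -3.48, adjusted p = 0.00026 and 1.67e-06 by edgeR). *CERS4*, a ceramide synthase, was called lower at 6 h (-0.71, adjusted p = 0.0158) and higher at 24 h (0.72, adjusted p = 0.00692), and the difference of the responses was 1.43 (adjusted p = 0.00295). *SPNS3*, a relative of *SPNS2*, averaged 0.0446 and 0.452 CPM at 24 h. Autotaxin (*ENPP2*) averaged 0.472 and 0.107 CPM and *LPAR6* 0.372 and 0.0636 CPM at 24 h.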
